A study of Mus musculus with 70 samples.

Results

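The genes described here build the extracellular matrix: the collagen chains, the laminin chains and the lysyl oxidases. They were taken by symbol, as every row named Col followed by a type number and a chain letter and number, every Lama, Lamb or Lamc chain, and every Lox or Loxl gene. This gave 51 of the 14260 genes in the expression table, which were 38 collagen, 11 laminin and 2 lysyl oxidase genes (Loxl1 and Loxl3). RNA-seq had been done on the hippocampus of APP23 mice, called TG, and of non-transgenic littermates, called NTG. APP23 mice carry the transgene Thy1-APP on a B6 background, so that mutant human amyloid precursor protein is made under the neuronal Thy1 promoter. Mice of each genotype either ate ad libitum (ALF) or were placed on time-restricted feeding (TRF), in which food was offered for 6 h, from zeitgeber time 15 (ZT15) to ZT21, of a cycle of 12 h light and 12 h dark with lights on at ZT0. Restricted feeding started at an age of 6 to 9 months, and the hippocampus of 1 hemibrain was taken at an age of 10 to 13 months, at ZT0, ZT6, ZT12 or ZT18. The comparisons address whether feeding time, genotype and time of day change hippocampal transcripts. The labels give no sex for single animals.

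The 70 libraries came from 69 animals, since the 2 libraries of 1 NTG TRF animal were averaged. There were 16 NTG ALF, 16 NTG TRF, 19 TG ALF and 18 TG TRF animals, and by time there were 25 for ZT0, 11 for ZT6, 23 for ZT12 and 10 for ZT18. All animals of ZT6 and ZT18 carry numbers in the 300s, as do only 2 of ZT0 and 1 of ZT12, so the number series and these times are nearly the same split. Libraries held 27.9 M to 47.1 M reads assigned to genes (median 37.2 M). The values are the authors' size-factor-normalized counts, called normalized counts below. All 7 hippocampal excitatory neuron markers were present, with a summed level of 52950 to 83000 normalized counts in each animal. The 17 choroid plexus markers summed to between 1309 and 243000, and the choroid plexus transcript Ttr alone ran from 27.6 to 215420, with no animal between 6174 and 15232. Of these 17 markers, Slc4a5, Aqp1, Steap1 and Tmem72 were at 0 in 1 to 4 animals each. A limit of 10000 normalized counts of Ttr, chosen after its values were seen, separated 25 low from 44 high animals. Low animals made up 8 of 16 NTG ALF, 6 of 16 NTG TRF, 3 of 19 TG ALF and 8 of 18 TG TRF animals. In such tissue RNA, fewer cells of a type and less RNA per cell cannot be told apart.

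Collagens are trimers of coiled chains. Fibrillar types such as I and III form fibres in meninges and vessel walls, and type IV chains form the network of basement membranes, joined by laminin trimers of 1 alpha, 1 beta and 1 gamma chain. Lysyl oxidases cross-link collagen and elastin outside the cell. In the brain most of these genes are known from blood vessels, meninges and choroid plexus, with a few, such as Col25a1 and Col19a1, known from neurons.

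Of the 51 genes, 11 were fibrillar collagens, 6 type IV chains, 3 short-chain or anchoring collagens, 6 collagen VI or related chains, 8 fibril-associated collagens, 2 transmembrane collagens, 2 multiplexins, 5 laminin alpha, 3 beta and 3 gamma chains, and 2 lysyl oxidases. By normalized count the 5 highest were Col25a1, Col4a2, Lamb1, Col4a1 and Lamc1. Col25a1, a transmembrane collagen found in amyloid plaques, had 2747 ± 357 normalized counts (SD, n = 69), and the lowest, Lamb3, had 50 ± 16.8. Divided by exon length, the basement membrane chain Col4a2 led with 262 normalized counts per kb, followed by Col9a3 (257), Lamb2 (232.4), Col25a1 (212) and then Col4a1. The place of Col9a3 differed with Ttr, at 90.7 per kb and rank 11 of the members in the 25 low-Ttr animals and at 351.6 and rank 1 in the 44 high ones, where Col4a2 had 270 and 258. Per kb, Col3a1 was at 9.2 and Col1a1 at 29.3. Col3a1 and Col1a1 were thus far below the basement membrane chains Col4a2, Col4a1 and Lamb2 on the per-length scale. This did not hold for every laminin chain. Lama4 had 20.5 per kb in the low-Ttr and 20 in the high-Ttr animals, beside 27.6 and 30.3 for Col1a1. The spread between animals differed as widely, from a coefficient of variation of 12.6% for Lamb1 and 13% for Col25a1 to 77.2% for Col8a1, 71.5% for Col8a2, 67.9% for Col4a3 and 66.6% for Col3a1.

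Several of the genes with the widest spread also had a slope on Ttr. With genotype, feeding and time in the model, 11 of the 51 members had a slope on log2 Ttr, all positive (limma, Benjamini-Hochberg adjusted p under 0.05), while 10.8% of all genes had a slope in either direction and 6.56% a positive one. This comparison was added after the spread of Ttr was seen. The slope, in log2 units per doubling of Ttr, was 0.45 for Col8a1, 0.33 for Col4a3, 0.27 for Col8a2, 0.25 for Col9a3 and 0.24 for Col4a4. It was smaller for Col18a1 (0.09), Loxl1 (0.09), Col6a3 (0.07), Col4a5 (0.06), Lama5 (0.05) and Lamb1 (0.02). For Col6a3 all 44 high-Ttr animals lay under the highest low-Ttr animal, and all 25 low ones lay over the lowest high one. Its call ended in 3 of 69 fits that each left out 1 animal. The other 40 members, among them all 11 fibrillar collagens, did not pass the test. The median slope over the members was -0.002, next to -0.001 over all genes.

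Col8a1 and Col8a2 encode the short network-forming chains of type VIII collagen, known from the Descemet membrane of the cornea and from vessel walls. Col8a1 ran from 26.1 over a median of 52.9 to 124.8 normalized counts in the 25 low animals, and from 105.7 over 786.2 to 1209 in the 44 high animals. These ranges overlapped by 1 high and 3 low animals. Col8a2 ran from 42.1 over 134.6 to 253.2 in the low animals and from 76.6 over 651.8 to 1496 in the high animals. Here 2 high animals lay under the highest low animal, and 24 of the 25 low animals lay over the lowest high one.

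Col4a3 and Col4a4 encode chains of the specialised type IV network known from the kidney filter, the cochlea and the choroid plexus. Col4a3 ran from 2.75 over 25.5 to 71.4 in the low and from 49.8 over 138.1 to 265.5 in the high animals. Col4a4 ran from 11.2 over 30.7 to 68.8 and from 29.2 over 132.6 to 244.3. For each gene 4 high animals lay under the highest low animal, while 1 low animal for Col4a3 and 16 low animals for Col4a4 lay over the lowest high one. Col9a3, a chain of the fibril-associated type IX collagen of cartilage, went from 130.6, 359.2 and 542 to 371.8, 1365 and 2248 in the same order. Col4a1 and Col4a2, the chains of the common vessel network, had no called slope.

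**Figure D1:**
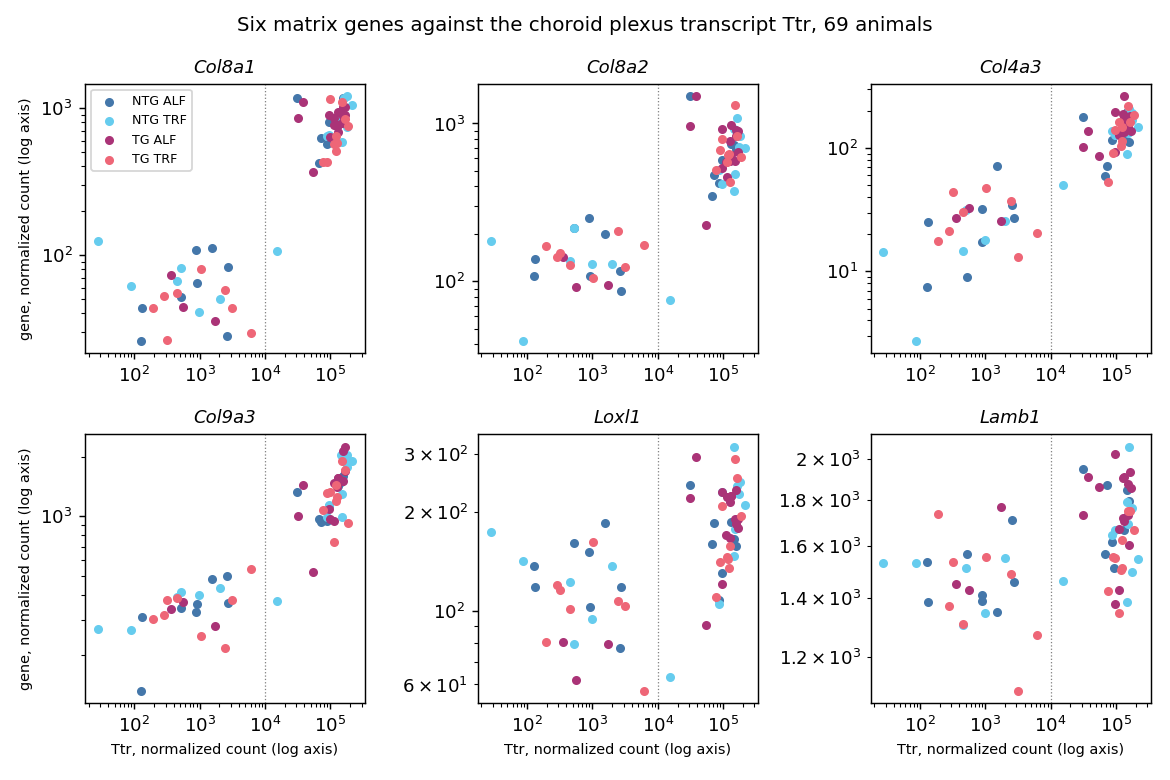
Normalized counts of Col8a1, Col8a2, Col4a3, Col9a3, Loxl1 and Lamb1 (vertical log axes) against Ttr (horizontal log axes) in 69 animals, coloured by genotype and feeding, with a dotted line at 10000 normalized counts of Ttr. The 25 animals left of the line sit lower than the 44 on the right for the collagen chains, with small overlap for Col8a1, and mostly overlap them for Lamb1.

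The slope on Ttr was also fitted in the low and in the high animals alone. Within the 25 low animals, 0 members were called by limma, and 1 of all 14260 genes was. The slope of Col8a1 there was 0.004 ± 0.078 (SE), and that of Col4a4 was -0.001 ± 0.067. Within the 44 high animals 16 members were called, 13 of them positive, beside 32.8% of all genes. Without the 5 animals whose libraries correlated least with the rest, 41 high animals remained, in which 9 members were called, all positive, beside 2.08% of all genes. The slope in these 41 was 0.83 ± 0.08 for Col8a1, 0.79 ± 0.102 for Col8a2, 0.7 ± 0.109 for Col4a4, 0.66 ± 0.081 for Col9a3 and 0.55 ± 0.094 for Col4a3.

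The sequence before the start site is shown for the members of this group and of the time comparison below whose 250 upstream bases overlap no annotated exon (RefSeq, GRCm38.p6). The Ttr-related Col8a1 lies on the minus strand, with the window chr16:57754738-57754987. Lama5, which encodes the laminin alpha chain of mature vessel basement membranes, has the window chr2:180225860-180226109 on the minus strand. Col6a3, a chain of the microfibrillar type VI collagen, has chr1:90843972-90844221 on the minus strand. Col3a1, the gene with the largest time difference among the called members, has chr1:45311288-45311537 on the plus strand. All are written 5′ to 3′ on the gene's strand, with capitals marking GGGCGG, its complement CCGCCC, or TATAAA.
Col8a1: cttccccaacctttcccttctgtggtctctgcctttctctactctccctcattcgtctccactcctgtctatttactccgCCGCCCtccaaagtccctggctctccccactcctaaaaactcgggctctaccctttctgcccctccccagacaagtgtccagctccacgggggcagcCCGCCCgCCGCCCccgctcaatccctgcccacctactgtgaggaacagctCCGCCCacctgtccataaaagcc
Lama5: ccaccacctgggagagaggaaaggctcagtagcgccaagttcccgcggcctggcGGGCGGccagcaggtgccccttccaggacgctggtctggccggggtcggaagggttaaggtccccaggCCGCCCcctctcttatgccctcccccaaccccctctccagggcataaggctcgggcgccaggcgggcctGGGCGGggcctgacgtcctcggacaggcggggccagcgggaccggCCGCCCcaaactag
Col6a3: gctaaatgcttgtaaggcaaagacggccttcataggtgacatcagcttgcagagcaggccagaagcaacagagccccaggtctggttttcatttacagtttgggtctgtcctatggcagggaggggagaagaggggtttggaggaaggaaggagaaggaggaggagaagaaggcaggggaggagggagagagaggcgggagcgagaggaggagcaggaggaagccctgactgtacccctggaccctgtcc
Col3a1: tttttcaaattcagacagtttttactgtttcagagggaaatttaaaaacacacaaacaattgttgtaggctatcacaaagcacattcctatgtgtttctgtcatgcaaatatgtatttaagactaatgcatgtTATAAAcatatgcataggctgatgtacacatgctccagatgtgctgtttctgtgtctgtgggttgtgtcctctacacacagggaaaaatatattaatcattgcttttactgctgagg
The windows of Col8a1 and Lama5 held GGGCGG on either strand 4 times each and were 60.8% and 72.4% G or C. The window of Col3a1 held TATAAA once, no GGGCGG, and was 35.2% G or C, and that of Col6a3 held neither.

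A window was found for 34 of the 51 members. On either strand GGGCGG was in 22 of the 34 (64.7%, beside 35.4% of 27025 genes), CCAAT in 12 (35.3%, beside 37.5%) and TATAAA in 2 (5.88%, beside 14.3%). The E-box CACGTG, bound by the clock proteins CLOCK and BMAL1, was in 0 of 34, beside 6.86% of the 27025 genes. TAATCC, the core bound by the choroid plexus factor OTX2, was in 1 of 34, beside 7.21%. All members were taken from the expression table, whereas the 27025 genes include genes outside it. The shares among the genes of the expression table are not given here. Whether the members differ from other expressed genes in these motifs was therefore not tested. TAATCC and CCAAT can share bases, so 1 stretch can count for both, and the counts describe letters in a window of 250 bases. Col4a1 and Col4a2 face each other head to head on chromosome 8, with start sites 21 bases apart on opposite strands.

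Between ZT0, the end of the night, and ZT12, the end of the day, 9 members were lower at ZT12 and 0 were higher, and 36 of the 51 estimates were negative. The 9 were Col3a1 and Col1a1, chains of the fibrillar collagens of meninges and vessel walls, Col2a1, the fibrillar collagen of cartilage, Col4a1 and Col4a2, the common basement membrane chains, Lamb1, a laminin beta chain of most vessel basement membranes, Col12a1 and Col20a1, fibril-associated collagens, and the cross-linking enzyme Loxl1. By limma, 13.6% of all genes were called lower and 14.4% higher, 27.9% in all, so that 9 of 51 members (17.6%) is a share near the background for lower calls. At an unadjusted p under 0.05 there were 14 lower and 0 higher members, 27.5% of the 51 beside 39.7% of all genes in either direction. In the same animals voom called 10 lower and 0 higher, and the share of all genes called by voom is not given here. The median log2 difference was -0.15 over the members and 0.003 over all genes.

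Col3a1 ran from 47.1 over a median of 98.4 to 387.8 normalized counts at ZT0, and from 17 over 65.4 to 129.8 at ZT12. The groups overlapped over most of the ZT12 range. On the log2 scale the difference was -0.94 ± 0.2 (SE), or 0.52-fold, with an adjusted p of 0.000241 by limma. Col1a1 ran from 113.4 over 194.7 to 662.8 at ZT0 and from 81.4 over 138.8 to 350.5 at ZT12, a difference of -0.52 ± 0.146 (adjusted p = 0.0053 by limma). Its partner Col1a2, which joins it in the type I trimer, was not called.

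Loxl1 ran from 104.8 over 173.9 to 292 at ZT0 and from 61.9 to 229.2 (mean 132.4) at ZT12, a difference of -0.55 ± 0.149 (adjusted p = 0.00407 by limma). Col12a1 ran from 241.9 over 456.6 to 775.1 at ZT0 and from 256.1 over 369.4 to 469.6 at ZT12. The ZT12 range of this gene lay inside the ZT0 range, and the difference was -0.38 ± 0.088 (adjusted p = 0.000745 by limma). Col2a1 went from a median of 78.6 to 57.2, a difference of -0.44 ± 0.134, and Col20a1 from 240.1 to 203.9, a difference of -0.28 ± 0.099.

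The basement membrane chains had smaller log2 differences. Col4a1 ran from 1374 over 1665 to 2269 at ZT0 and from 1149.7 over 1457 to 1809.7 at ZT12, a difference of -0.25 ± 0.062 (adjusted p = 0.00152 by limma). Col4a2 had medians of 1939.7 and 1549.8 and a difference of -0.27 ± 0.085 (adjusted p = 0.0156 by limma). Lamb1 had medians of 1645 and 1510 and a difference of -0.15 ± 0.046 (adjusted p = 0.0144 by limma). For these 3 genes the ranges of the 25 ZT0 and 23 ZT12 animals overlapped over most of their length.

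**Figure D2:**
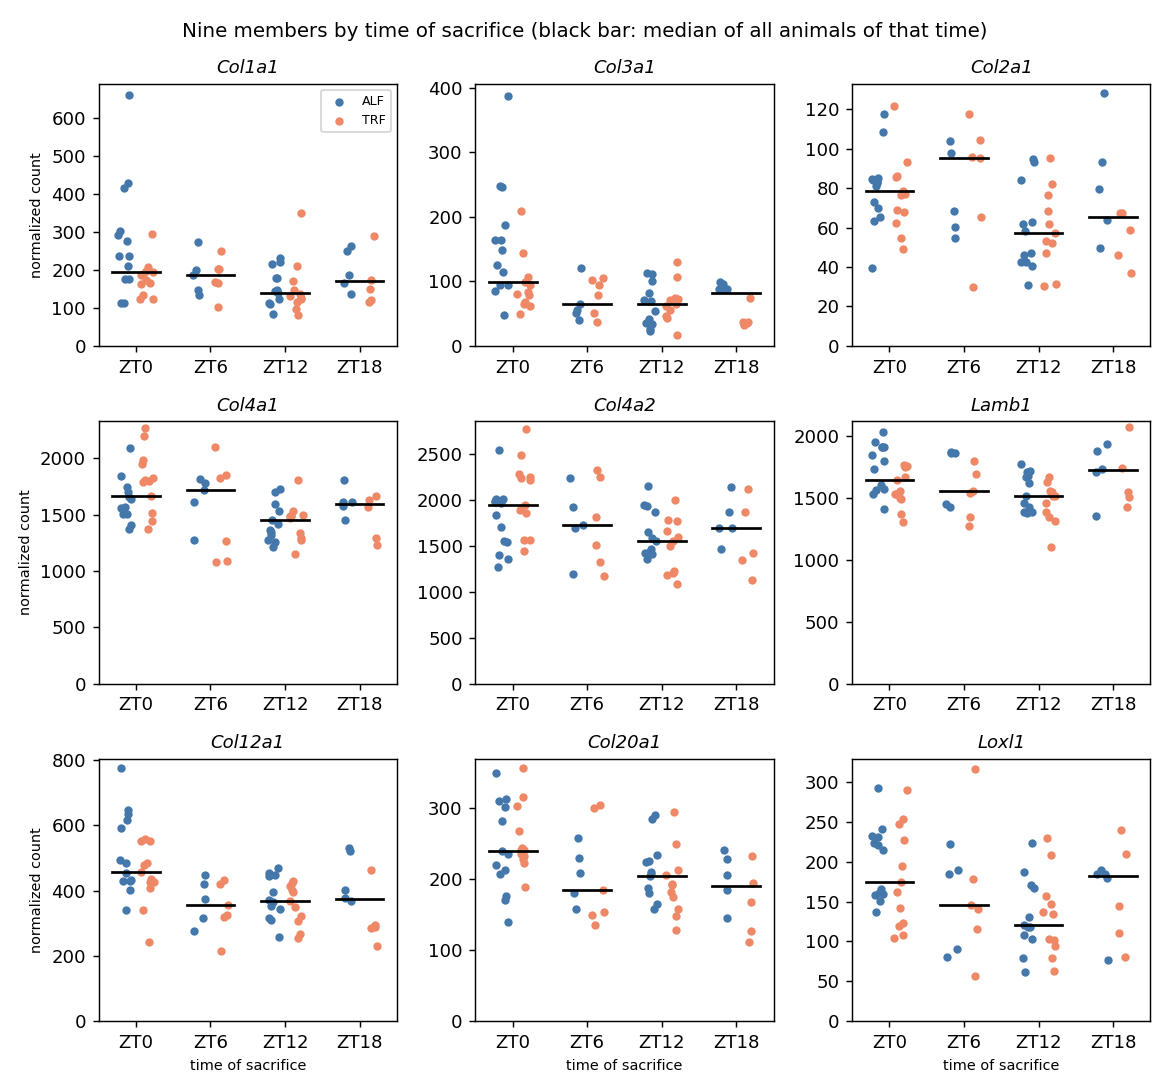
Normalized counts (vertical axes from 0) of the 9 members called lower at ZT12 than at ZT0, by time of sacrifice, with ALF animals in blue, TRF animals in orange and a black bar at the median of all animals of a time. The highest Col1a1 and Col3a1 values, 662.8 and 387.8, are of ALF animals at ZT0, and the ZT12 medians lie below the ZT0 medians in all 9 panels.

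Other members had the same sign without passing the test. Col8a2 differed by -0.75 ± 0.351 and Col8a1 by -0.74 ± 0.543 on the log2 scale, neither of them called. With log2 Ttr as a covariate the errors narrowed and 13 members were called, namely the 9 above with Col8a1 (-0.7), Col8a2 (-0.73), Col18a1 (-0.39) and Lama5 (-0.25). All 13 were lower at ZT12. The share of all genes called with this covariate is not given here, so the 13 cannot be set beside a background. Ttr itself had medians of 67923 at ZT0 and 87561 at ZT12, while its means went the other way, with 77334 and 60910. Low-Ttr animals were 9 of 25 at ZT0 and 10 of 23 at ZT12.

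**Figure D3:**
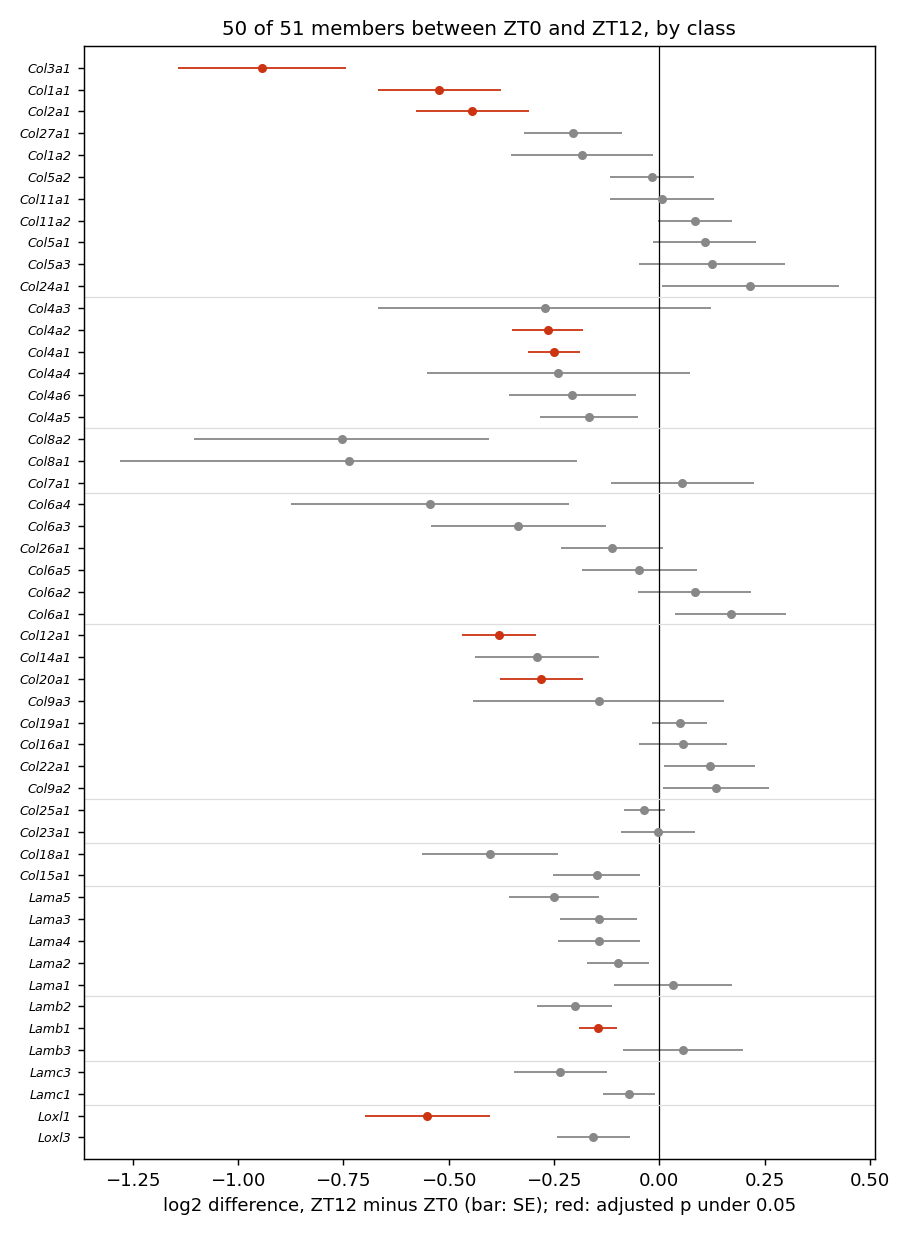
Log2 difference of 50 of the 51 members between ZT12 and ZT0 (horizontal axis, bars 1 SE), grouped by class. Red points mark the 9 members with an adjusted p under 0.05, which all lie left of 0, with Col3a1 at -0.94 the farthest.

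Endothelium markers also changed between these times. Of 19 endothelium markers, 10 were lower and 3 higher at ZT12 by limma, with a median of -0.26, and their summed level ran from 10590 over 18640 to 21830 at ZT0 and from 9623 over 16500 to 19990 at ZT12. No marker of this list was at 0 in any animal. With the list's level as a covariate 5 of the 9 members remained called and Col1a1, Col2a1, Col4a2 and Col20a1 did not, and the part of endothelium in the result was not tested further. Of 19 fibroblast markers, 3 were lower and 1 higher, and with their level as a covariate all 9 members remained called. Within the 100s number series 5 of the 9 remained, within the series below 100 there were 0 (limma, 8 members at an unadjusted p under 0.05), and within the 25 low-Ttr animals 1 of the 9 remained (Col12a1). The shares of all genes called with these covariates and in these smaller fits are not given here. Whether the members lost calls more than other genes was therefore not tested. Without the 5 animals of lowest library correlation, 4 of them ALF animals at ZT0, Col1a1 and Lamb1 lost the call, with differences of -0.35 for Col1a1 and -0.12 for Lamb1.

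Over all 4 times, an F test by limma called 12 members, where it called 35.6% of all genes. The shared ones were 8 of the 9 members called between ZT12 and ZT0, without Col4a2, and the further ones were Lama3, Lamb3, Col22a1 and Col25a1. Leaving out 1 animal at a time ended the call of Col25a1 in 22 of 69 fits, of Col22a1 in 7, of Lamb3 in 4 and of Lama3 in 0. Lama3 and Lamb3, chains of a laminin of epithelia, had their lowest medians at ZT18, with 237.6 for Lama3 and 35.5 for Lamb3. Lama3 ran from 195.7 over 360.2 to 452.9 at ZT6 and from 171.3 over 237.6 to 318.5 at ZT18, and it was the 1 member called between these times (log2 difference -0.46 ± 0.14, adjusted p = 0.0275 by limma, beside 8.04% of all genes called and 3.77% called lower). Its ranges overlapped between 195.7 and 318.5, and its call between these times ended in 5 of 69 fits that each left out 1 animal. Col22a1, a collagen of tissue junctions, was highest at ZT6, with a median of 156 beside 101.3 at ZT0, 109.2 at ZT12 and 90.7 at ZT18. Col25a1 had a median of 2663 at ZT0, with 2839 at ZT6, 2605 at ZT12, 2710.2 at ZT18, and differences far inside the spread of each time. In the 44 high-Ttr animals alone 2 of these 12 members were called over the 4 times, and in the 25 low ones 0 of them were. The shares of all genes called in these smaller fits are not given here, so a general loss of calls was not set apart.

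Other genes of the matrix pathway were also compared between ZT12 and ZT0, where 13.6% of all genes were called lower and 14.4% higher. Of 29 genes for collagen folding and processing 6 were lower and 3 higher, with a median log2 difference of 0.006 beside 0.003 over all genes. Of 10 basement membrane partners 5 were lower, of 13 matrix receptors 5, of 14 proteases and inhibitors 6, and of 15 TGF-beta genes 7 lower and 1 higher. The medians of the last 4 lists lay between -0.14 and -0.12. The procollagen N-proteinase Adamts2 fell by 0.58, the prolyl hydroxylase subunit P4ha1 by 0.32, and the related protease Adamts14 rose by 0.74 on the log2 scale. Mmp14, a membrane protease that activates other collagenases, fell by 0.94, Mmp2 by 0.52 and the inhibitor Timp4 by 0.27. The perlecan gene Hspg2 fell by 0.69, Smoc2 by 0.23 and the dystroglycan gene Dag1 by 0.11. The adhesion receptor Adgrg1, which binds collagen III, fell by 0.53, Itga6 by 0.33 and Itga10 by 0.39. In the TGF-beta list Tgfb3 fell by 0.39, Tgfb2 by 0.3 and Ccn1 by 0.58. Between ZT6 and ZT18, where 8.04% of all genes were called, the collagen chaperone gene Serpinh1 rose by 0.73 and P4ha1 by 0.5. In the receptor list Itga10 rose by 0.67, and in the TGF-beta list Ccn1 fell by 0.54 (adjusted p = 0.0105 and 0.0496 by limma).

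Feeding was the second factor. In TG mice 1 member, Lamb1, was lower under TRF by limma, and 40 of the 51 estimates were negative, with a median of -0.18 beside 0.002 over all genes. Of all genes 0.540% were called and 0.344% were lower. At an unadjusted p under 0.05 there were 16 members, all lower, 31.4% of the 51 beside 17.1% of all genes in either direction. Lamb1 ran from 1376 over 1733 to 2026 normalized counts in 19 TG ALF mice and from 1099.7 over 1523 to 1751 in 18 TG TRF mice. The highest TG TRF value was just above the TG ALF median, and the ranges overlapped widely. The log2 difference was -0.21 ± 0.053 (adjusted p = 0.0386 by limma). In NTG mice the Lamb1 difference was -0.02 ± 0.057, and the difference between the genotypes' feeding effects was -0.2 ± 0.077 with an adjusted p of 0.929 by limma.

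The Lamb1 call was not stable. With Ttr as a covariate the difference was -0.17 with an adjusted p of 0.0681 by limma. Leaving out 1 animal at a time ended it in 18 of 69 fits, with differences from -0.23 to -0.19, the last without 1 TG TRF animal of ZT12 that is among the 5 of lowest library correlation (adjusted p = 0.109 by limma). Lamb1 was also a member with a slope on Ttr, and Ttr had medians of 112990 in TG ALF and 82627 in TG TRF mice.

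Lamc1, the gamma chain that pairs with Lamb1 in most laminins, had the smallest adjusted p of feeding over both genotypes. It ran from 1083 over 1482.5 to 2462 in 35 ALF mice and from 980.6 over 1374 to 1725 in 34 TRF mice. Its log2 difference over both genotypes was -0.18 ± 0.052, with an adjusted p of 0.0562 by limma, so 0 members were called there, beside 1.68% of all genes. At an unadjusted p under 0.05 there were 10 members, all lower, 19.6% of the 51 beside 18% of all genes in either direction, and voom called 0. Lama2, the laminin alpha chain made by perivascular and muscle cells, differed by -0.18 ± 0.062 and did not pass. The members with the largest differences here were Col6a4 (-0.48 ± 0.276), Col8a1 (-0.45 ± 0.454) and Col6a3 (-0.41 ± 0.174), all with adjusted p-values above 0.1.

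**Figure D4:**
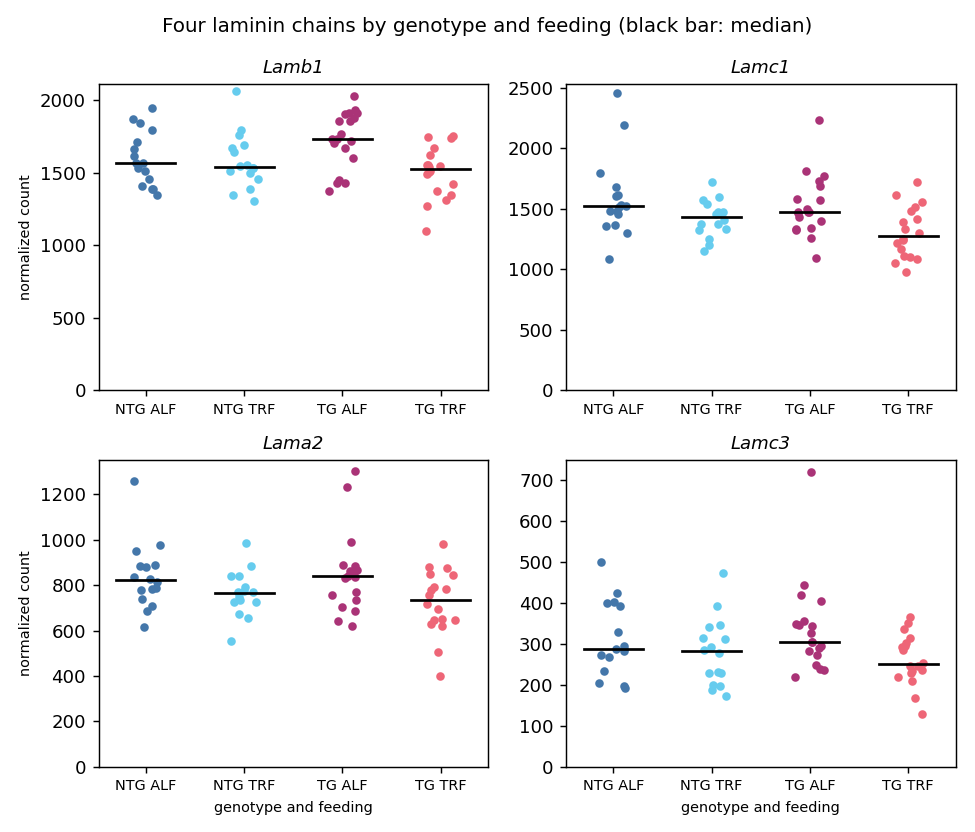
Normalized counts (vertical axes from 0) of Lamb1, Lamc1, Lama2 and Lamc3 in the 4 groups of genotype and feeding, 1 point per animal with a black bar at the median. The TG TRF group has the lowest median in each panel, 1523 for Lamb1 and 1275 for Lamc1, and its points overlap those of the other groups.

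Within TG mice the other members of smallest p were Col25a1 (-0.18 ± 0.055, adjusted p = 0.0948 by limma) and Lamc1 (-0.22 ± 0.071, adjusted p = 0.106). The largest differences were those of the Ttr-related Col8a1 (-1.37 ± 0.618), Col4a3 (-0.83 ± 0.45) and Col4a4 (-0.73 ± 0.355), none of them called. With Ttr as a covariate these became -0.54, -0.23 and -0.29. Over the 11 members with a slope on Ttr the median difference of TRF from ALF in TG mice was -0.6, and -0.23 with the covariate. Over the other 40 members it was -0.15 and -0.13. The 17 choroid plexus markers all had negative estimates in this comparison, with a median of -1.42 and 0 called by limma (6 at an unadjusted p under 0.05), and the 19 endothelium markers had a median of -0.19 with 2 lower. How far these cell types account for the members' differences was not tested.

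Among NTG mice 0 members were called for feeding, by limma or by voom, and 0 had an unadjusted p under 0.05. Of all genes 0.0281% were called. Lamc1 had -0.13 ± 0.076, Col27a1 -0.23 ± 0.144 and Col3a1 -0.37 ± 0.245, and the largest differences were Col6a4 (-0.54), Col4a4 (0.48) and Col8a1 (0.47). Without 1 NTG TRF animal that of Col6a4 became -0.34, and without 1 NTG ALF animal that of Col8a1 became 0.23. For the difference of feeding effects between the genotypes, 0 members and 0 genes were called by limma, with 7 members at an unadjusted p under 0.05 (13.7%, beside 5.22% of all genes), all more negative in TG mice. Lama5 had the smallest p, at -0.51 ± 0.176 (adjusted p = 0.929 by limma), and Col8a1 the largest size, at -1.84 ± 0.908.

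Split by time, the median difference of TRF from ALF over the members was -0.13 at ZT0 and -0.02 at ZT12. The test of the difference between the times called 0 members by limma or voom, with 3 members at an unadjusted p under 0.05 (5.88%, beside 3.43% of all genes). At ZT0, in 13 ALF and 12 TRF animals of both genotypes, 0 members were called, beside 0.0491% of all genes. There were 11 members at an unadjusted p under 0.05 (21.6%, beside 17% of all genes), of which 10 were lower in TRF. Lamc1 ran from 1459 over 1528 to 2462 in ALF and from 1107 over 1360.2 to 1609.8 in TRF mice at ZT0, a log2 difference of -0.33 ± 0.085 (adjusted p = 0.0803 by limma). Of the laminin gamma chain Lamc3 the medians were 390.8 and 269.2 (-0.46 ± 0.152), and for Lama2 the difference was -0.31 ± 0.105. Col3a1 ran from 47.1 over 148.4 to 387.8 in ALF and from 49.5 over 82.2 to 209.3 in TRF, a difference of -0.7 ± 0.261 that did not pass (adjusted p = 0.19 by limma).

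A few animals weighed on these differences at ZT0. The 5 animals of lowest library correlation, with a median Spearman correlation to the others from 0.959 to 0.977, included 4 of the 13 ALF animals at ZT0. Among these ALF animals the 3 highest Lamc1 values, 2462, 2236 and 2194, and the 3 highest Col3a1 values, 387.8, 248.2 and 246.4, were of this kind. Without the 5, the difference at ZT0 became -0.18 for Lamc1 (adjusted p = 0.591 by limma), -0.13 for Lama2, -0.24 for Lamc3 and -0.35 for Col3a1.

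At ZT12 feeding called 0 members by limma, beside 0.00701% of all genes, with 1 member at an unadjusted p under 0.05 (1.96%, beside 4.79% of all genes), the lysyl oxidase Loxl3 (-0.31 ± 0.125, adjusted p = 0.866). Lamb3 (0.35 ± 0.187) and Col6a2 (0.34 ± 0.186) followed. Lamc1 medians were 1499 in ALF and 1455 in TRF mice at ZT12, and those of Col3a1 were 62.1 and 65.4. The difference between the feeding effects at ZT12 and ZT0 was 0.31 ± 0.123 for Lamc1, 0.49 ± 0.22 for Lamc3 and 0.83 ± 0.377 for Col3a1, each with an adjusted p of 0.972 by limma.

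**Figure D5:**
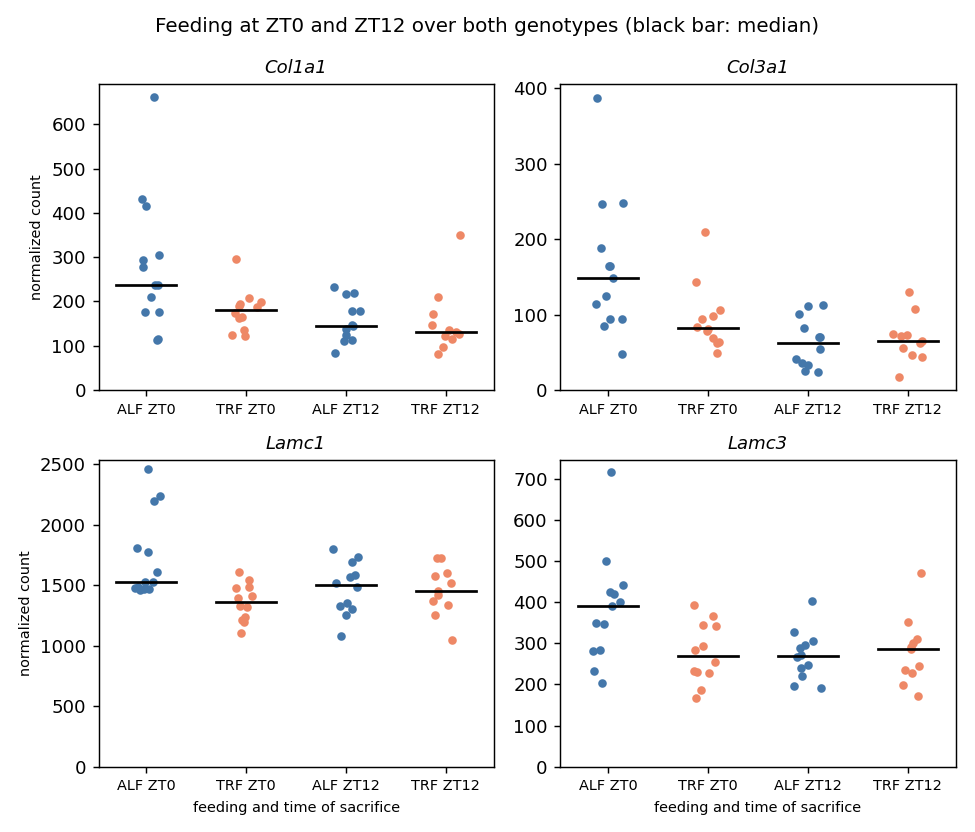
Normalized counts (vertical axes from 0) of Col1a1, Col3a1, Lamc1 and Lamc3 in ALF (blue) and TRF (orange) mice at ZT0 and ZT12, both genotypes together, with a black bar at the median. At ZT0 the ALF medians lie above the TRF medians, 148.4 beside 82.2 for Col3a1, and at ZT12 they are close, 62.1 beside 65.4.

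Of the pathway genes, few passed for feeding. In TG mice under TRF the collagen-binding protein gene Sparc rose by 0.25, while Hspg2 fell by 0.61, the integrin gene Itgb4 by 0.4, the collagen receptor gene Ddr2 by 0.44 and Tgfbr2 by 0.32. Of all genes 0.540% were called there, 0.344% lower. In the lists the called genes were 1 of 29 processing genes, 1 of 10 basement membrane partners, 2 of 13 receptors, 0 of 14 proteases and inhibitors (limma, 5 at an unadjusted p under 0.05) and 1 of 15 TGF-beta genes. In NTG mice P4ha1 fell by 0.33. Over both genotypes P4ha1 and Itga6 each fell by 0.19 and Itgb4 by 0.35, and at ZT0 Itgb4 fell by 0.57.

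Genotype called 0 members on either feeding or over both, by limma or by voom. Of all genes 0.189% were called on ALF, 0.133% on TRF and 0.449% over both. On ALF 39 of the 51 estimates were positive, with a median of 0.1, and 7 members had an unadjusted p under 0.05 (13.7%, beside 7.3% of all genes), all higher in TG mice. The largest differences were Col8a1 (1.31 ± 0.645), Col4a3 (1.09 ± 0.47) and Col4a4 (0.83 ± 0.371). Col8a1 ran from 26.1 over 267 to 1178 in NTG ALF and from 35.7 over 786.3 to 1093 in TG ALF mice, so the TG range lay inside that of NTG. With Ttr as a covariate these became 0.22, 0.3 and 0.25.

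The choroid plexus markers moved in the same direction. All 17 had positive estimates between TG and NTG on ALF, with a median of 1.75 and 0 called by limma (14 at an unadjusted p under 0.05), and low-Ttr animals were 3 of 19 in TG ALF and 8 of 16 in NTG ALF. The 11 members with a slope on Ttr all had positive estimates, with a median of 0.38, and 0.13 with the covariate. The member with the smallest p on ALF was Col4a6, a chain of smooth muscle basement membranes, with medians of 57.3 in NTG and 73.5 in TG mice and a difference of 0.43 ± 0.179 (adjusted p = 0.578 by limma), and 0.38 with the covariate.

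On TRF 31 of the 51 estimates were negative, with a median of -0.03. The 3 members at an unadjusted p under 0.05 (5.88%, beside 6.94% of all genes) were all lower in TG mice and not called. They were Col25a1 (-0.15 ± 0.058), the multiplexin Col15a1 (-0.29 ± 0.123) and Lama3 (-0.25 ± 0.11). Col25a1 had medians of 2664 in NTG TRF and 2662 in TG TRF mice, and 2672 and 2775 in the ALF groups. Col14a1 differed by -0.32 ± 0.177, Col4a4 by -0.38 (-0.25 without 1 NTG TRF animal) and Col8a1 by -0.53. Over both feedings Lama3 (-0.17 ± 0.078), Col5a2 (0.18 ± 0.084) and Col4a6 (0.24 ± 0.128) came first, with adjusted p-values of 0.559, 0.564 and 0.669 by limma. There 30 of the 51 estimates were positive, with a median of 0.018. At an unadjusted p under 0.05 there were 2 members (3.92%, beside 8.11% of all genes), 1 higher and 1 lower.

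Chains that join in 1 protein were compared across animals, within the high-Ttr and the low-Ttr animals separately, after the group and time means were taken out. The 8 pairs, chosen after the values were seen, gave 16 correlations, with Benjamini-Hochberg adjustment over the 16. No pairs of other genes are given beside them. The level of Ttr was not among the terms taken out, and Col8a1, Col8a2, Col4a3 and Col4a4 had slopes on Ttr within the high animals, as given above. How far Ttr or library quality enters these correlations was not tested. Col4a1 and Col4a2, the pair with a shared start region, had the closest relation in the low animals, with r = 0.88 (rho = 0.86, n = 25, permutation p = 1e-05 for each), and r = 0.86 (rho = 0.87, n = 44, permutation p = 1e-05 for each) in the high animals. Here 1e-05 is the smallest p these permutations can give, and the adjusted p was 2.67e-05 for r and 3.2e-05 for rho. Without the 2 animals farthest from the median r was 0.87 and 0.88.

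Col1a1 and Col1a2 had r = 0.8 (rho = 0.8, n = 44, permutation p = 1e-05 for each, adjusted p = 2.67e-05 and 3.2e-05) in the high animals and r = 0.66 (rho = 0.58, n = 25, permutation p = 0.00039 and 0.00301, adjusted p = 0.00064 and 0.00401) in the low ones. Without the 2 farthest animals r was 0.78 and 0.51. For the Ttr-related pairs the values of the high and low animals lay farther apart. Col8a1 and Col8a2 had r = 0.88 (rho = 0.76, n = 44, permutation p = 1e-05 for each, adjusted p = 2.67e-05 and 3.2e-05) in the high animals, 0.77 without the 2 farthest. In the low animals r was 0.34 (rho = 0.35, n = 25, permutation p = 0.101 and 0.0839, adjusted p = 0.108 and 0.0959), and 0.26 without the 2 farthest.

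Col4a3 and Col4a4 had r = 0.7 (rho = 0.62, n = 44, permutation p = 1e-05 and 2e-05, adjusted p = 2.67e-05 and 5.33e-05) in the high animals and r = 0.12 (rho = 0.19, n = 25, permutation p = 0.565 and 0.364, adjusted p = 0.565 and 0.364) in the low ones. Without the 2 farthest animals r was 0.55 and 0.11. The difference between high and low animals was not tested. In the low animals these genes were near the bottom of their range, with medians of 25.5 for Col4a3 and 30.7 for Col4a4. Lamb1 and Lamc1 had r = 0.49 (rho = 0.61, n = 44, permutation p = 0.00061 and 4e-05, adjusted p = 0.000887 and 9.14e-05) and r = 0.38 (rho = 0.4, n = 25, permutation p = 0.063 and 0.0503, adjusted p = 0.072 and 0.0619), with 0.42 and 0.41 without the 2 farthest. The pairs of types V, VI and IX had r from 0.4 to 0.76.

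In no comparison of groups, times or Ttr were 29 of the 51 members called, and their mean levels ran from 54.2 to 1458.6 normalized counts. The share of all genes called in none of them is not given here, so this count has no background beside it. The collagens among them were Col11a1, Col11a2, Col14a1, Col15a1, Col16a1, Col19a1, Col1a2, Col23a1, Col24a1, Col26a1, Col27a1, Col4a6, Col5a1, Col5a2, Col5a3, Col6a1, Col6a2, Col6a4, Col6a5, Col7a1, Col9a2. The laminins included Lama1, Lama2, Lama4, Lamb2, Lamc1 and Lamc3, and the lysyl oxidase was Loxl3.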

How the data were processed

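RNA was poly-A selected, reads were trimmed with Trimmomatic on Galaxy, and HISAT2, featureCounts and DESeq2 with GRCm38 are named in the submitters' processing notes, with versions not given in the sources used here. Per the labels and the values, the authors deposited an expression signal for each library, the gene counts divided by that library's size factor. The smallest gene mean was 40.8, so genes of low level had been left out before deposition. Values were log2-transformed after adding 1 and fitted with limma 3.58.1 (R 4.3.3; variance trend, robust) over all 69 animals and 14260 genes, with 4 group means and terms for time, or 16 means of group and time for feeding at ZT0, ZT12 and their difference. All tests were 2-sided with Benjamini-Hochberg adjustment over all genes at 0.05, and the code was tested on simulated data. With no replicate label beyond animal numbers, p-values measure the spread between these animals.

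Members and gene lists were chosen with earlier results of these data known. Named with values were members past the threshold in any comparison, the 3 of smallest p and the 3 of largest size in each, the 5 of highest level, and from each pathway list the called genes or, for time, the 3 of smallest p. Some further genes were named after their values were seen. Alternatives were covariates (Ttr, fibroblast and endothelium levels, number series), pseudocount, filter, weights, scaling and leaving out animals. Promoter windows and gene names come from RefSeq (GRCm38.p6) and exon lengths from GENCODE. The values of 1 member are not reported here.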

Additional observations from a re-analysis of the deposited data

Results flagged for a closer look

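At ZT18, with 10 animals, 1 NTG ALF animal stood apart from the others for 2 members. Its Col27a1 level of 609.8 normalized counts was followed by 341.9, a gap of 0.606 of the whole range, above the critical value of Dixon's test. Its Col6a3 level of 869.6 was followed by 514.2, a gap of 0.479 of the range. There were 34 such sets of animals tested, of which 2 were flagged by a lone high value, and chance flags about 1 in 20.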

How the results depend on the processing

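No paired analysis was possible because each animal number belongs to 1 group. The 1 member called for TRF against ALF in TG (Lamb1) became 0 with Ttr, the endothelium level or the number series as a covariate, with ZT0 and ZT12 animals only, with no term for time, without the 5 animals of lowest correlation, and within the animals with Ttr above 10000 or below 10000. The last 3 settings were chosen after seeing the data, as were the splits by number series. Over both genotypes the count went from 0 to 1 with the fibroblast level or the number series as a covariate. The count of 12 over the 4 times became 2 in the animals with Ttr above 10000, and 2 in those below, none of which was among the 12. The 9 of ZT12 against ZT0 became 5 with the endothelium level as a covariate, 5 in the 100s series, 2 in the animals with Ttr below 10000 (1 of them higher) and 0 in the series below 100. The 1 of ZT18 against ZT6 became 3 with array weights, 2 with voom, with the number series or without the 5 animals, and 0 within the Ttr-high and within the Ttr-low animals. The smaller fits hold fewer animals, and the other causes were not tested. The shares of all genes called under these alternatives are not given here, so the counts have no background beside them. Leaving out 1 animal at a time gave 0 to 2 members for TRF against ALF in TG, 0 to 1 over both genotypes, 10 to 15 for the 4 times, 8 to 12 for ZT12 against ZT0, 0 to 2 for ZT18 against ZT6, 0 to 1 for feeding at ZT0, 10 to 12 for the slope on Ttr, and 0 in all 69 fits of the other comparisons.

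In each comparison, signs were followed only for the called members and for those of smallest p and of largest size. Whether the remaining members kept their sign is not given here. Among the members followed, no called value changed sign. Of the values not called, 17 did, all among Col8a1, Col8a2, Col4a3, Col4a4 and Col3a1. In the animals with Ttr below 10000, TG against NTG became -0.296 for Col4a4 on ALF, and over both feedings -0.151 for Col8a2 and -0.208 for Col8a1. There, TRF against ALF in TG became 0.059 for Col4a3 and 0.318 for Col4a4, in NTG 0.154 for Col3a1, and genotype by feeding 0.481 for Col4a3. With ZT0 and ZT12 animals only, TG against NTG on TRF became 0.334 for Col8a1 and 0.039 for Col4a4, and TRF against ALF in NTG -0.282 for Col8a1, which was -0.146 in the animals with Ttr above 10000. For Col8a1, TG against NTG over both feedings became -0.147 with Ttr and -0.049 with the fibroblast level as a covariate, and the feeding effect at ZT12 against ZT0 became -0.14 and -0.299. In the series below 100, ZT12 against ZT0 was 0.662 for Col8a1 and 0.006 for Col8a2. The 10 animals at ZT18 and 11 at ZT6 limit the comparison of these times.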
